A study of Mus musculus with 21 samples.

Results

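Homeobox patterning genes encode transcription factors that share a DNA-binding homeodomain and are known for assigning cells to positions along the axes of the embryo. The set described here held 98 autosomal protein-coding genes, under 97 symbols, of the 54532 genes in the data. Its rule used names and no measured value, but was chosen with earlier results of these data known. The members are numbered genes of the Hoxa, Hoxb, Hoxc, Hoxd, Dlx, Lhx, sine oculis (Six2 to Six6), Pax, Otx, Emx, Irx, En, Meis, Pbx and Nkx families. Messenger RNA was sequenced from 7 glioma stem-like lines, cultures established from mouse brain tumours of engineered strains. The labels give PIC144-1, PIC144-3, PIC496-3 and PIC496-4 as IDH1 mutant, and PC134-0, PC308-1 and PC326-1 as IDH1 WT. Each line had 3 libraries, 21 in all. All lines were kept as floating cultures in NeuroCult NS-A medium with EGF, bFGF and heparin at 5% oxygen. The IDH1 allele, the other engineered genes, the promoter that drove them and the animal behind each line are not given by the sources used here, so lines whose names start alike (PIC144-1 and PIC144-3, PIC496-3 and PIC496-4) may or may not share an animal.

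The Hox genes stand in 4 clusters, and within a cluster their order along the chromosome matches their order of use along the body, with low-numbered genes active from the hindbrain backwards and high-numbered genes towards the tail. Pbx and Meis proteins bind DNA together with Hox proteins as cofactors. The forebrain and midbrain are normally free of Hox expression and are instead laid out by genes such as Otx, Emx, Lhx2, Six3, Pax6, En and Irx, while Dlx and Nkx genes mark ventral territories. Levels are given as FPKM, fragments scaled to the length of the gene and to the size of the library, which allows genes of different length to be compared. A gene is called on in a line at a mean of at least 1 FPKM over the line's 3 libraries, and near 0 under 0.1 FPKM. Values after ± are SD, over the 3 libraries of a line unless lines are named.

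The libraries held 15011668 to 21966351 fragments. The labelled cell type was checked on its markers: Sox2 (103 to 228 FPKM), Olig2 (199 to 419 FPKM) and Nes (46.9 to 80.5 FPKM) were on in every line, and 8 or 9 of the 9 neural stem cell and glioma stem-like markers were on in each. Their summed level was lowest in PIC496-4 (1261 FPKM) and between 1292 and 2011 FPKM in the other lines. Of 7 microglia and macrophage markers and 5 endothelial markers, P2ry12 in PC134-0 (1.36 FPKM) was the 1 value at or above 1 FPKM. The oligodendrocyte progenitor markers summed to 317 FPKM in PIC496-4, 756 FPKM in PIC496-3, 805 FPKM in PC308-1 and 438 to 517 FPKM in the other lines. Pdgfra was at 0.436 FPKM in PIC496-4 and at 104 FPKM in PC308-1. The 6 fibroblast and pericyte markers summed to 11.2 FPKM in PIC144-1, of which Dcn made up 10.4 FPKM, and to 0.387 to 2.12 FPKM in the other lines, where Col1a1 in PIC496-4 (1.63 FPKM) was the 1 marker on. The 5 astrocyte markers summed to 28.4 FPKM in PIC496-4 and to 50.8 to 72.8 FPKM in the other lines. Of these 5, 3 were on in PIC496-4 and 1 to 3 in the other lines. The 7 neuron markers summed to 2.99 FPKM in PIC496-4 and to 10.5 to 31.5 FPKM elsewhere, and the 4 ependymal markers to 0.600 to 1.42 FPKM.

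Of the 98 genes, 39 were on in at least 1 line, 12 of these in all 7 lines and 27 in some. Another 10 reached between 0.1 and 1 FPKM at most, and 49 stayed under 0.1 FPKM in every line, of which 26 had no fragment in any library. A share of 39.8% of the members was on in at least 1 line, against 54.2% of all autosomal protein-coding genes, and 12.2% of members against 43.6% of those genes were on in all 7 lines. By line, the number of members on ran from 21 in PIC496-4 and 22 in PC134-0 to 34 in PC308-1 and 35 in PIC144-3. The Hoxb and Hoxc families, 2 of the 15, had no member on. In bulk RNA, fewer cells that use a gene and less RNA per cell cannot be told apart.

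**Figure D1:**
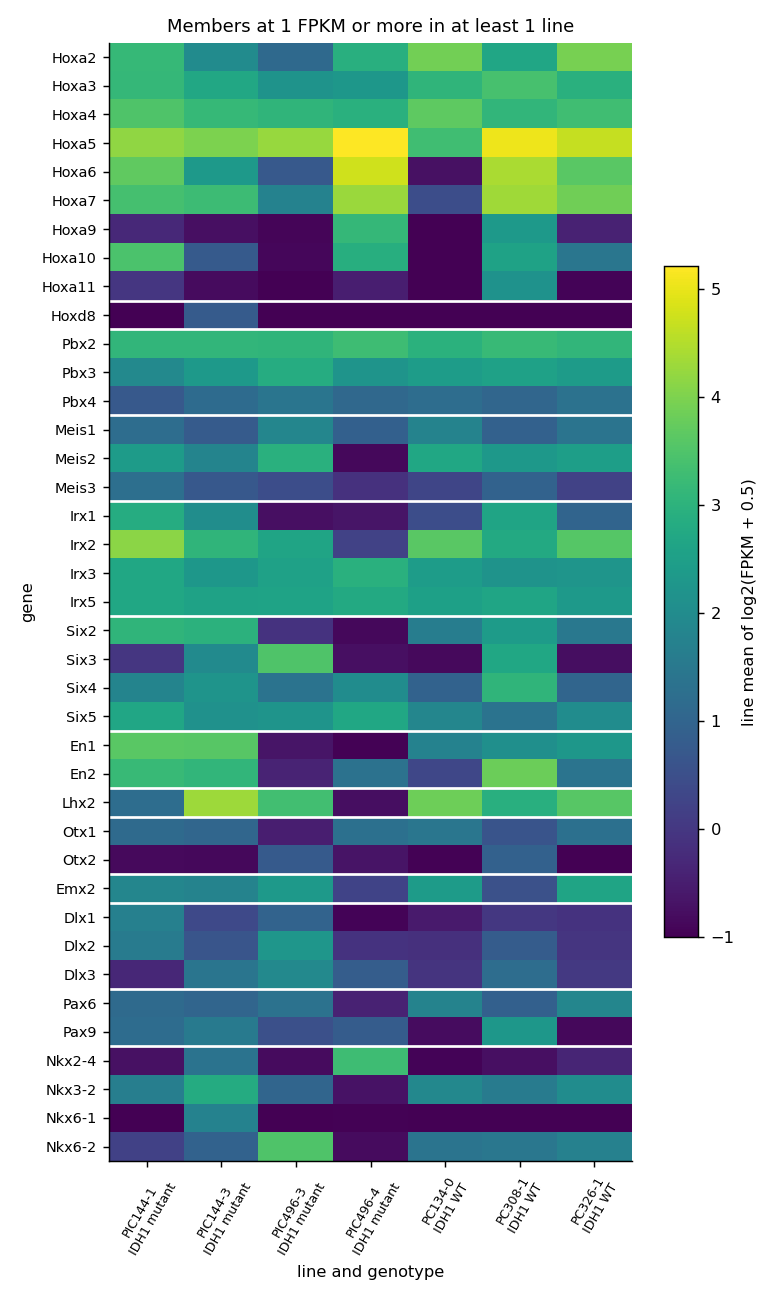
Heat map of the 39 members that were on in at least 1 line (rows, by family) in the 7 lines (columns, with genotype). Colour gives the mean of log2(FPKM + 0.5) over the 3 libraries of a line. The Pbx rows, Irx3, Irx5 and Hoxa4 are even across the columns, while Hoxa6 to Hoxa11, En1, En2, Lhx2, Six3 and the Nkx rows change from line to line.

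The Hoxa cluster was the part of the Hox system in use. The genes described lie on the minus strand of chromosome 6, from Hoxa2 (52162417 to 52164831) to Hoxa13 (52257694 to 52260880), in GRCm38 coordinates as in the deposited file. All 4 genes from Hoxa2 to Hoxa5 were on in all 7 lines, and Hoxa6 to Hoxa11 were on in some. To show what stands in front of genes of both kinds, the 250 bases before the start are printed 5′ to 3′ for those of the Hoxa genes that were on and whose RefSeq window (GRCm38.p6) overlapped no annotated exon, with CG dinucleotides, the sites of DNA methylation, in capitals. Hoxa2 and Hoxa5 were on in all lines, and Hoxa9 and Hoxa10 in some. Hoxa10 has a pair of windows, 1 for each annotated start. The Hoxa9 window and the inner Hoxa10 window lie within the spans of these genes in the deposited file, which begin further upstream.
Hoxa2 (chr6:52164832-52165081, minus strand): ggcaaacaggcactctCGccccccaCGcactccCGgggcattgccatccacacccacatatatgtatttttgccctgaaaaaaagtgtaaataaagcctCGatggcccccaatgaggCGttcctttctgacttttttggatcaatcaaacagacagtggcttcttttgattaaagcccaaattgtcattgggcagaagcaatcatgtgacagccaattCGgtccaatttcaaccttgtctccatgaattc
Hoxa5 (chr6:52204588-52204837, minus strand): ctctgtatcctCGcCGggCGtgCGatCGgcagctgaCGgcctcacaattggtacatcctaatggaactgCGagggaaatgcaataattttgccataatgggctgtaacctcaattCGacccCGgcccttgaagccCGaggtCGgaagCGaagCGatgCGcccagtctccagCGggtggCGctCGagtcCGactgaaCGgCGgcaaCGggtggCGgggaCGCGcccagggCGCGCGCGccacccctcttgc
Hoxa9 (chr6:52227371-52227620, minus strand): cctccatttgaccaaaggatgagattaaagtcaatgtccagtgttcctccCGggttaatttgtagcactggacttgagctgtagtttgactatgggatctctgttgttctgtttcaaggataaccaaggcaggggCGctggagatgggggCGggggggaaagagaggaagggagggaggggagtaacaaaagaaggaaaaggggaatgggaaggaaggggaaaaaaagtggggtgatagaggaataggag
Hoxa10, inner start (chr6:52234940-52235189, minus strand): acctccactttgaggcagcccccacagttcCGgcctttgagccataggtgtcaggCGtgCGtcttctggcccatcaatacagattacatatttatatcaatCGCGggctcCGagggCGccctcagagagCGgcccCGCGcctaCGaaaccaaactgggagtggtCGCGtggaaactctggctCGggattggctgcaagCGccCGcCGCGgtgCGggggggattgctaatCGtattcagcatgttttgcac
Hoxa10, outer start (chr6:52240855-52241104, minus strand): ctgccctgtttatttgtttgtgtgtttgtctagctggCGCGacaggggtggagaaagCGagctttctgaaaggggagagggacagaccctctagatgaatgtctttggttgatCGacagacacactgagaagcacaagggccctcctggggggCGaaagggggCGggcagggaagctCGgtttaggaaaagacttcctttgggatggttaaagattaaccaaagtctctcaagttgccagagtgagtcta
The Hoxa5 window held 28 CG dinucleotides, a number that 7.61% of all 32851 RefSeq windows reached. The inner Hoxa10 window held 20 (reached by 17.9% of windows), the outer 1 held 7 (46.3%), the Hoxa2 window 6 (50.4%) and the Hoxa9 window 3 (71.0%). The median was 6 over all windows and 14 over the 78 windows of the 65 member symbols that had one. It was 15 for the 39 windows of members on in at least 1 line and 14 for the 39 windows of members that were never on, a difference that was not tested.

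Hoxa3, Hoxa4 and Hoxa5 ranged by under 4-fold between lines. Hoxa4 ran from 7.22 FPKM in PIC496-4 to 12.3 FPKM in PC134-0, a 1.70-fold range of line means, and Hoxa3 from 4.03 to 10.1 FPKM (2.49-fold). Hoxa5, by its mean over lines the most abundant member of its cluster, was lowest in PC134-0, where its libraries gave 9.29, 9.15 and 9.70 FPKM. It was highest in PIC496-4 (41.5, 32.0 and 36.4 FPKM) and PC308-1 (34.8, 29.3 and 34.2 FPKM), whose libraries overlapped. The other lines lay between, with Hoxa5 means from 15.2 ± 0.307 FPKM in PIC144-3 to 24.9 ± 1.66 FPKM in PC326-1. Hoxa2, which specifies hindbrain segments and the second branchial arch, had the widest range of these 4 genes. Its libraries gave 1.55, 1.86 and 1.66 FPKM in PIC496-3 and 14.7, 13.8 and 15.7 FPKM in PC326-1, an 8.69-fold difference of line means. Summed over Hoxa2 to Hoxa5, the lines held 32.0 to 56.9 FPKM.

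From Hoxa6 on, the lines separated. Hoxa6 measured 26.7, 24.0 and 29.0 FPKM in PIC496-4, 21.3, 22.6 and 19.3 FPKM in PC308-1, and 12.3, 13.3 and 11.8 FPKM in PIC144-1. In PC326-1 it measured 12.2, 9.92 and 13.3 FPKM, in PIC144-3 5.90, 3.21 and 5.22 FPKM, and in PIC496-3 1.08, 0.901 and 1.61 FPKM. PC134-0 stood lowest, with 0.135, 0.0722 and 0.124 FPKM, a line mean 241-fold under that of PIC496-4. Apart from PIC144-1 and PC326-1, whose libraries overlapped, the libraries of neighbouring lines in this order did not overlap. Hoxa7 had the same 2 highest and 2 lowest lines, at 19.6 ± 2.18 FPKM in PC308-1 and 18.9 ± 1.59 FPKM in PIC496-4 against 2.86 ± 0.116 FPKM in PIC496-3 and 0.895 ± 0.101 FPKM in PC134-0.

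Hoxa9, best known from leukaemia, was on in 2 lines only. Its libraries gave 9.59, 7.22 and 8.28 FPKM in PIC496-4 and 4.16, 4.70 and 4.76 FPKM in PC308-1. PIC144-1 (0.331 ± 0.0925 FPKM) and PC326-1 (0.265 ± 0.101 FPKM) were low, PIC144-3 and PIC496-3 were under 0.1 FPKM, and PC134-0 had no Hoxa9 fragment, so that PIC496-4 was at least 797-fold higher by the limit that a count of 0 allows (3 fragments over the line's libraries). Hoxa10 did not follow Hoxa9, although the genes are neighbours: PIC144-1 had the highest Hoxa10 level of all lines, at 10.5, 10.4 and 10.3 FPKM. Hoxa10 was also on in PIC496-4 (7.15, 6.51 and 7.26 FPKM), PC308-1 (5.19, 5.19 and 5.89 FPKM) and PC326-1 (2.06, 1.93 and 2.71 FPKM), and just on in PIC144-3 (1.23, 1.02 and 1.38 FPKM). It was near 0 in PIC496-3 (0.0192, 0.0481 and 0.0375 FPKM) and in PC134-0 (0.0181, 0 and 0 FPKM). Hoxa11, a limb and reproductive tract gene, was on in PC308-1 alone, at 4.90, 3.80 and 3.40 FPKM, with at most 0.706 FPKM in any library of another line. Hoxa13, the last gene of the cluster, peaked at 0.647 FPKM in PC308-1 and was on nowhere.

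By the last Hoxa gene that was on, the cluster therefore ended at Hoxa5 in PC134-0, at Hoxa7 in PIC496-3, at Hoxa10 in PIC144-1, PIC144-3, PIC496-4 and PC326-1, and at Hoxa11 in PC308-1. These end points depend on the threshold: at 0.5 FPKM the last gene on was Hoxa7 in PC134-0 (0.895 FPKM), Hoxa11 in PIC144-1 and Hoxa13 in PC308-1, and at 2 FPKM it was Hoxa7 in PIC144-3. At 1 FPKM, Hoxa9 was skipped in 3 of these lines, PIC144-1, PIC144-3 and PC326-1. Summed over Hoxa6 to Hoxa13, the levels ran from 1.01 FPKM in PC134-0 and 4.12 FPKM in PIC496-3 to 55.3 FPKM in PC308-1 and 61.0 FPKM in PIC496-4. Some Hoxa exons overlap other genes: 35% of Hoxa11 exon bases lie opposite exons of Hoxa11os, 25.4% of those of Hoxa3 opposite 4 genes including Hoxaas2 and Hoxaas3, and 20.4% of those of Hoxa7 opposite Hoxaas3. Since the sources used here do not give whether counting used the strand, fragments of such pairs may not be told apart. Hoxa6 and Hoxa10 exons overlap no other gene. Of the noncoding genes of the cluster, Hotairm1 was on in all 7 lines (6.87 to 10.5 FPKM), Hoxaas2 reached 0.642 to 3.49 FPKM, Hoxa11os peaked in PC308-1 (0.935 FPKM) and Hottip stayed under 0.02 FPKM.

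**Figure D2:**
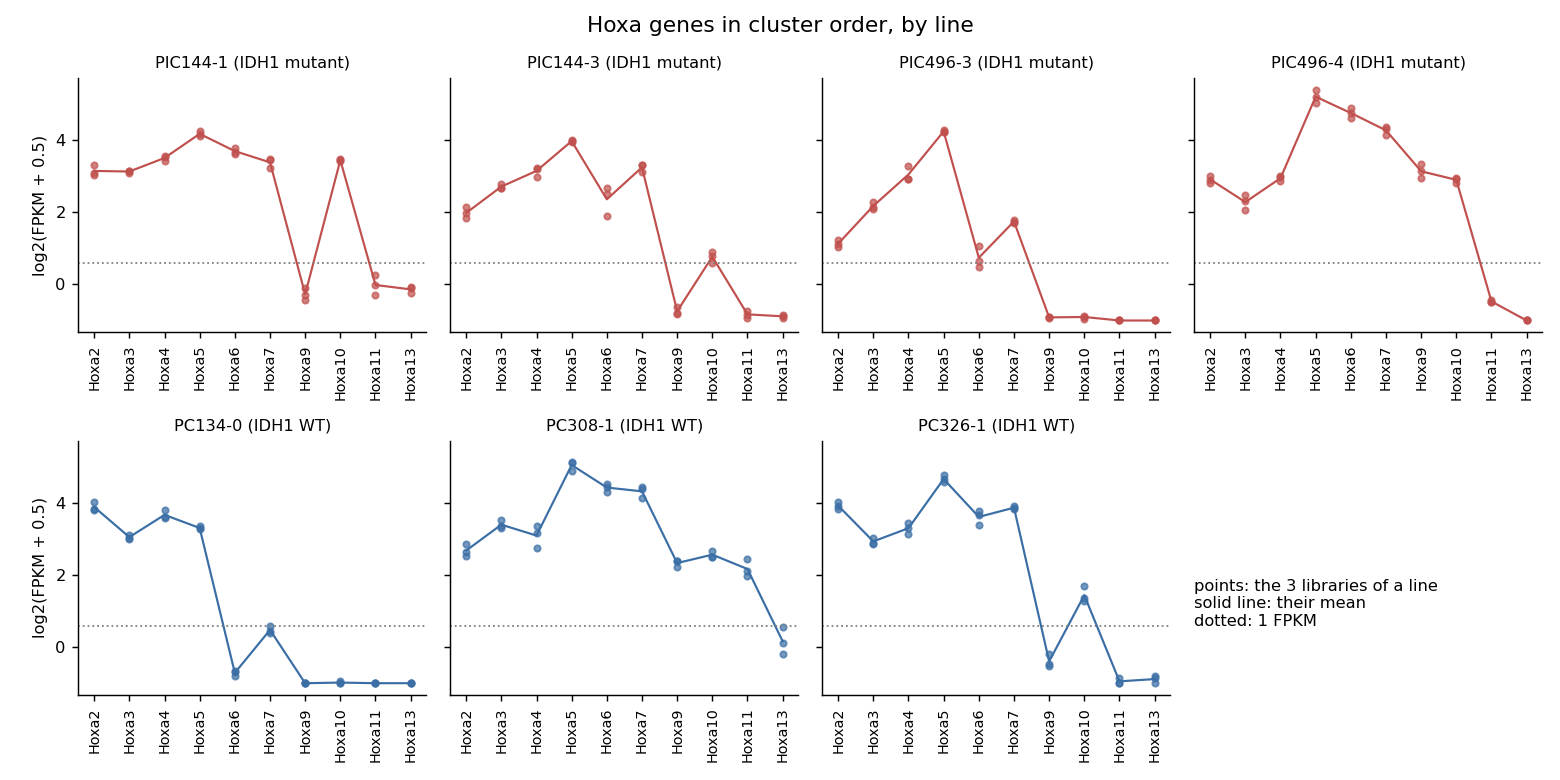
Levels of 10 Hoxa genes in cluster order, as log2(FPKM + 0.5), in 1 panel per line (red IDH1 mutant, blue IDH1 WT). Points are the 3 libraries of a line, the solid line joins their means, and the dotted line marks 1 FPKM. Hoxa2 to Hoxa5 stay above the dotted line in every panel. The drop after them comes at Hoxa6 in PC134-0, and PIC144-1 falls at Hoxa9 and returns to 10.4 FPKM at Hoxa10.

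The other 3 Hox clusters were silent or nearly so. Of 29 Hoxb, Hoxc and Hoxd genes, 21 had no fragment in any of the 21 libraries. All of them together held 292 fragments, against 64350 for the 10 Hoxa genes, and 274 of the 292 came from Hoxd8 and Hoxd9. Hoxd8 was on in PIC144-3 alone, at 1.49, 0.804 and 1.42 FPKM, and had no fragment elsewhere (at least 55.6-fold lower). Hoxd9, beside it on chromosome 2, gave 0.663, 0.614 and 0.740 FPKM in PIC144-3 and no fragment elsewhere. The highest Hoxb value was 0.0199 FPKM for Hoxb8 in PIC496-3 and the highest Hoxc value 0.0240 FPKM for Hoxc4 in PC326-1. The limit set by 3 fragments over a line's libraries was 0.0126 to 0.0593 FPKM for these genes. Hoxd4 is the 1 symbol with 2 entries, both counted among the 29 genes and both without a fragment. Hoxd3 and 1 Hoxd4 entry share 62.3% and 52.3% of their exon bases with genes on the same strand. The other Hoxd4 entry has no such value. Fragments may go uncounted in shared bases, so the Hoxd3 and Hoxd4 zeros are less certain than the rest. In Hoxb3, 52.9% of exon bases lie opposite Hoxb3os.

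Among the cofactors, the Pbx genes differed least between lines. Pbx2 measured 6.60 to 10.4 FPKM over the 21 libraries with a median of 7.96 FPKM, and its line means differed by 1.29-fold. Pbx3 (2.01-fold) and Pbx4 (1.84-fold) were likewise on in all 7 lines. Meis1, a partner of Hox and Pbx proteins, was on in all lines between 1.23 and 3.12 FPKM. Meis2 was on in 6 lines, from 2.99 ± 0.111 FPKM in PIC144-3 to 7.15 ± 0.573 FPKM in PIC496-3. In PIC496-4 it was near 0, at 0.0452, 0.0592 and 0.0450 FPKM, 143.6-fold under PIC496-3. Meis3 moved between 0.445 and 1.92 FPKM.

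The Iroquois genes, which pattern the neural plate, split by cluster. Irx3 (4.05 to 7.32 FPKM) and Irx5 (4.55 to 6.40 FPKM), neighbours on chromosome 8, were on in all 7 lines, with ranges of 1.81-fold and 1.41-fold. Irx1 and Irx2, neighbours on chromosome 13, were not even. Irx2 libraries gave 16.6, 16.8 and 17.1 FPKM in PIC144-1, the highest line, and 0.885, 0.501 and 0.661 FPKM in PIC496-4, the lowest, with the other lines between 5.72 and 11.9 FPKM. Irx1 was highest in PIC144-1 (7.60, 5.88 and 6.75 FPKM) and PC308-1 (5.89, 4.58 and 6.88 FPKM), and both PIC496 lines were lowest (0.0998 ± 0.0620 and 0.137 ± 0.0853 FPKM). Irx4 had no fragment and Irx6 reached 0.0390 FPKM.

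Six2 to Six6 encode homeodomain proteins of the sine oculis type, of which Six4 acts in muscle and Six3 sets up the anterior forebrain and eye. Six4 was on in every line and highest in PC308-1 (7.88 ± 0.916 FPKM) and PIC144-3 (4.14 ± 0.249 FPKM). Six5 was on in every line, from 2.09 to 5.99 FPKM. PC308-1 was also the line with the highest oligodendrocyte progenitor marker sum, given above, whose part in these levels was not tested. PIC496-3, with the next highest sum, had Six4 at 2.09 FPKM.

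Six2 and Six3 lie side by side on chromosome 17 and did not go together. Six3 was on in 3 lines: PIC496-3 (11.6, 10.9 and 10.1 FPKM), PC308-1 (6.08, 5.00 and 6.89 FPKM) and PIC144-3 (3.07, 3.46 and 3.66 FPKM). It was low in PIC144-1 (0.489 FPKM) and near 0 in PIC496-4, PC134-0 and PC326-1. The libraries of these 4 lines stayed at or under 0.551 FPKM, clear of the other 3 lines. Six3os1, the noncoding gene opposite Six3, was highest in those 3 lines too (3.07, 1.47 and 0.652 FPKM). Six2 was instead highest in PIC144-1 (8.11, 6.37 and 9.19 FPKM) and PIC144-3 (7.01, 6.78 and 8.65 FPKM), whose libraries overlapped. It was under 1 FPKM in PIC496-3 (0.503, 0.471 and 0.347 FPKM) and PIC496-4 (0.0286, 0 and 0.128 FPKM). Six6, an eye gene, reached 0.0182 FPKM.

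The Engrailed genes mark the border of midbrain and hindbrain. En1 overlapped between both PIC144 lines, at 12.2, 11.5 and 11.4 FPKM in PIC144-1 and 12.7, 10.5 and 11.8 FPKM in PIC144-3. It was 2.91 to 4.34 FPKM in the 3 IDH1 WT lines. It was lowest in the PIC496 lines, with 0.334, 0.120 and 0 FPKM in PIC496-3 and 0.0461, 0 and 0 FPKM in PIC496-4. The IDH1 mutant lines thus held both the highest and the lowest En1 levels. En2 was highest in PC308-1 (13.8, 10.5 and 17.3 FPKM), followed by PIC144-1 (8.43, 8.51 and 8.58 FPKM) and PIC144-3 (8.34, 7.42 and 8.24 FPKM). It lay between 2.09 and 2.12 FPKM in PIC496-4 and PC326-1 and was not on in PC134-0 (0.761 ± 0.138 FPKM) or PIC496-3 (0.265 ± 0.0162 FPKM).

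Lhx2, a LIM-homeodomain factor of forebrain and eye, was the 1 Lhx gene of 8 that was on. Its libraries gave 19.4, 18.4 and 19.2 FPKM in PIC144-3 and 14.8, 12.8 and 13.8 FPKM in PC134-0. They gave 1.83, 1.81 and 1.82 FPKM in PIC144-1, and 0.0551, 0.150 and 0.0617 FPKM in PIC496-4. The remaining lines were at 7.04 to 11.5 FPKM, so that 2 IDH1 mutant lines lay below all others. Of the other Lhx genes, Lhx4 was highest, at 0.388 FPKM in PC308-1. Otx1, a forebrain and midbrain gene, was on in 6 lines between 1.02 and 2.22 FPKM and lowest in PIC496-3 (0.220, 0.203 and 0.249 FPKM), against a median of 1.66 FPKM and a highest value of 2.45 FPKM over all libraries. Otx2 was on where Otx1 was low, in PIC496-3, and also in PC308-1, at 1.19 ± 0.237 and 1.40 ± 0.228 FPKM, and at most 0.125 FPKM elsewhere. Emx2, a gene of dorsal forebrain, ran from 0.694 ± 0.179 FPKM in PIC496-4 to 5.70 ± 1.08 FPKM in PC326-1, and over the 21 libraries from 0.530 to 6.92 FPKM with a median of 3.23 FPKM. Emx1 reached 0.0440 FPKM.

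Among the ventral and paired-box genes, Dlx2 was highest in PIC496-3 (4.52, 4.19 and 4.06 FPKM) and PIC144-1 (2.30, 2.69 and 2.55 FPKM). Dlx1, its neighbour on chromosome 2, was highest in PIC144-1 (2.63, 2.74 and 2.98 FPKM) and near 0 in PIC496-4 (0.0561, 0.0203 and 0 FPKM). Dlx3 ranged from 0.305 to 3.34 FPKM. Dlx5 and Dlx6, which mark forebrain interneurons, stayed at or under 0.251 FPKM. Of 9 Pax genes, 2 were on in any line. Pax6, a factor of radial glia and eye, was on in 6 lines from 1.38 to 3.11 FPKM and low in PIC496-4 (0.342, 0.277 and 0.158 FPKM). Pax9 was on in 4 lines, with 4.15, 5.10 and 3.95 FPKM in PC308-1, and near 0 in PC134-0 and PC326-1. Pax1 reached 0.5 FPKM in PIC144-3, and Pax2, Pax3, Pax4, Pax5, Pax7 and Pax8 stayed under 0.05 FPKM in every line.

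Of 13 Nkx genes, 9 were on in no line, and the other 4 were on in 1 to 6 lines. Nkx3-2 was the most widespread, on in 6 lines from 1.54 to 6.56 FPKM and at 0.127 ± 0.146 FPKM in PIC496-4, with a median of 2.65 FPKM over the 21 libraries. Nkx6-2, a gene of oligodendrocytes and ventral progenitors, stood out in PIC496-3 with 10.9, 10.1 and 11.5 FPKM. The next highest line was PC326-1 (2.83 ± 0.675 FPKM), and PIC496-4 was near 0 (0.0952, 0.0575 and 0.0569 FPKM). Nkx2-4 was highest in PIC496-4 (9.30, 8.05 and 10.4 FPKM), on in PIC144-3 (2.33, 2.28 and 1.70 FPKM) and at most 0.387 FPKM in any library of another line. Nkx6-1, a ventral spinal cord and pancreas gene, was on in PIC144-3 alone (2.40, 3.08 and 3.13 FPKM) and had no fragment in PIC144-1 or the 3 IDH1 WT lines (at least 147-fold lower). Nkx2-1, which marks the ventral forebrain, reached 0.106 FPKM in PIC144-1.

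**Figure D3:**
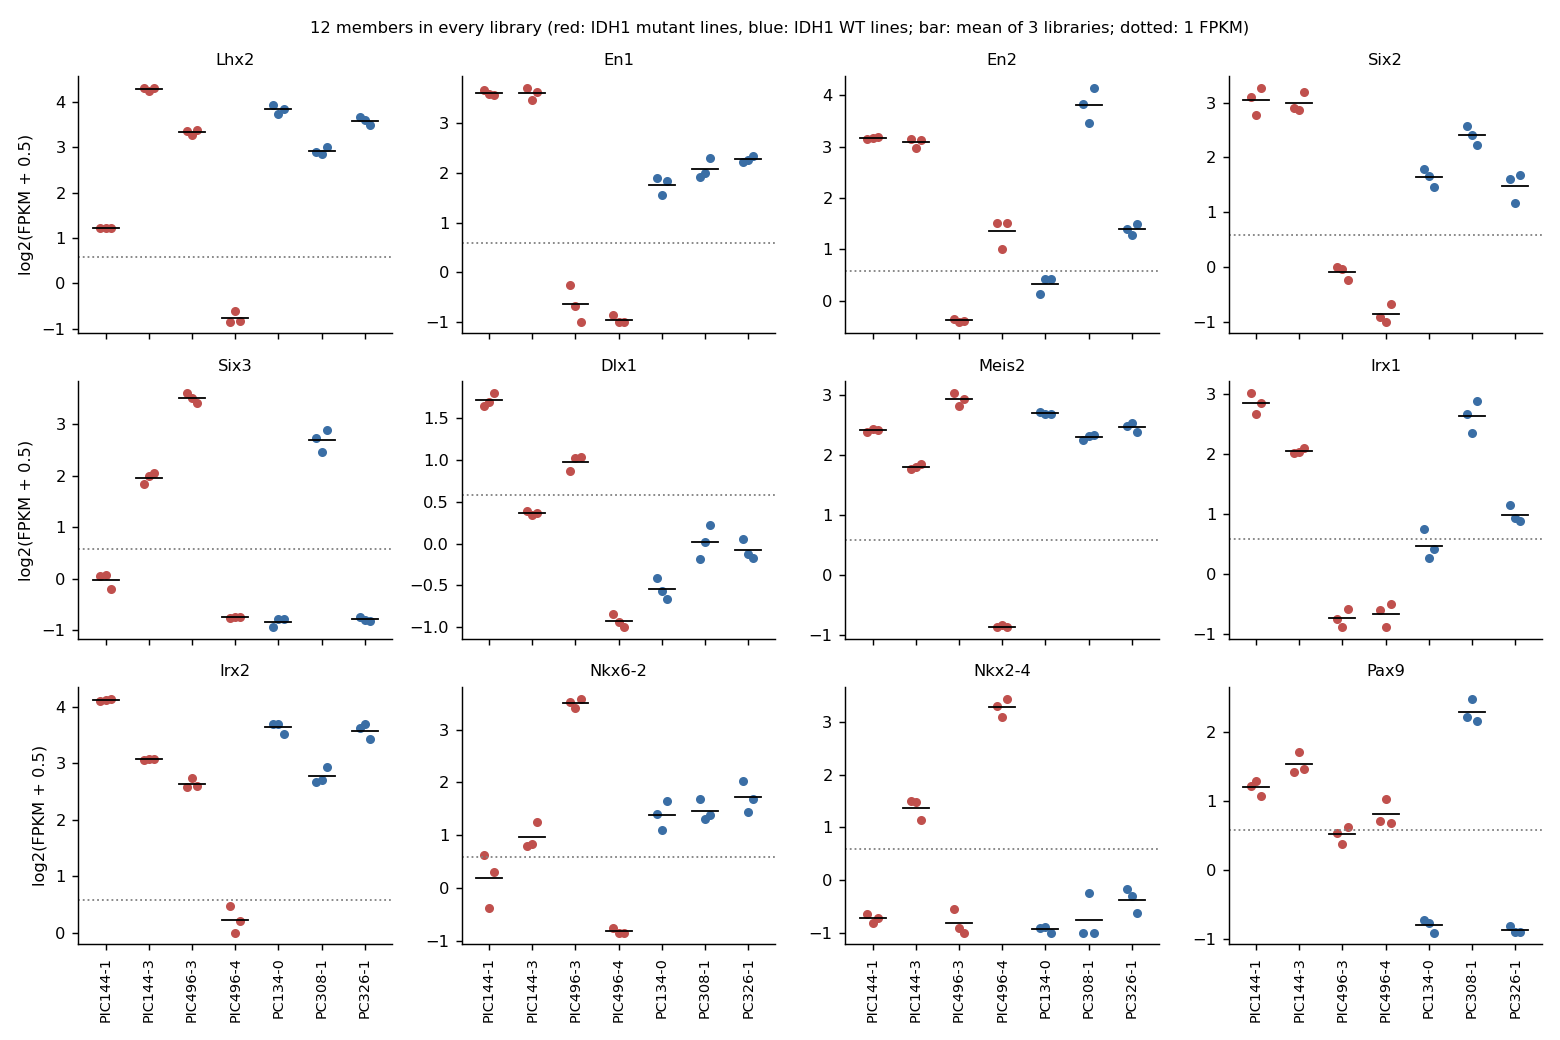
12 members in each of the 21 libraries, as log2(FPKM + 0.5), with red points for IDH1 mutant lines, blue points for IDH1 WT lines, a bar at the mean of the 3 libraries and a dotted line at 1 FPKM. The libraries of a line mostly lie close together. Some lines lie apart and others overlap, such as PIC144-1 and PIC144-3 for En1 and Six2, and PC134-0 and PC326-1 for Irx2. PIC496-4 is the lowest line for Lhx2, Meis2, Irx2, Six2 and Nkx6-2 and the highest for Nkx2-4.

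The spread over lines was compared with that of all genes. Tests were run on the 33 members whose line mean reached 0.5 FPKM in at least 3 of the 7 lines. The other 65, which include Hoxa9, Hoxa11, Hoxd8, Otx2, Nkx2-4 and Nkx6-1, did not enter. An F test over the 7 lines on 21 libraries (limma, adjusted p under 0.05) together with a difference of at least 4-fold between the highest and the lowest line was met by 21 of the 33. Of all 13379 genes tested, 1489 met it, 11.1%. The median of the highest minus the lowest line was 2.40 for the tested members and 0.88 for all genes on the log2(FPKM + 0.5) scale. The filter that chose the 33 uses the same levels, and libraries of a line may differ only technically, so these counts describe the lines and their libraries. The F test alone was passed by 89.6% of all genes. The widest ranges on this scale were those of Hoxa6 (5.47), Lhx2 (5.05), En1 (4.57) and Hoxa10 (4.43), and 6 of the 33 members, Pbx2, Pbx3, Pbx4, Irx3, Irx5 and Hoxa4, ranged by less than 2-fold on this scale.

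**Figure D4:**
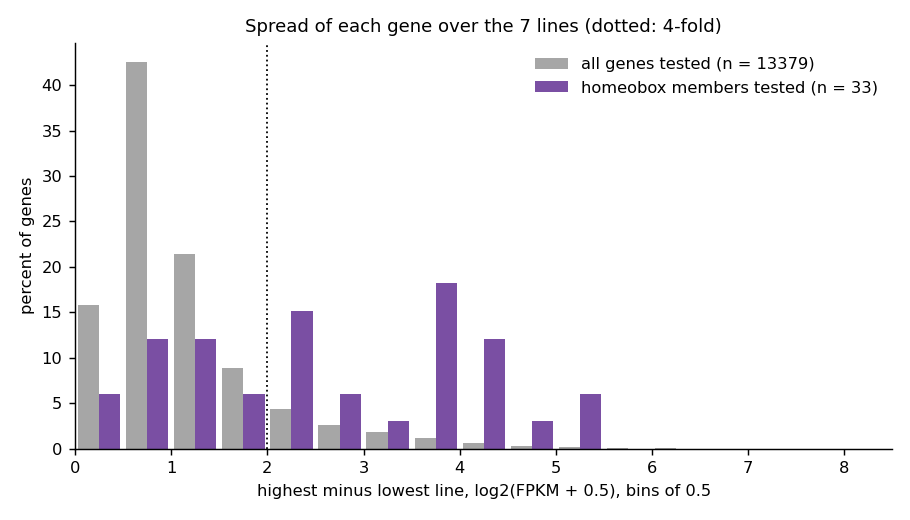
Share of genes, in percent, by the difference between their highest and lowest line on the log2(FPKM + 0.5) scale, in bins of 0.5, for all 13379 genes tested (grey) and the 33 members tested (purple). The dotted line marks 4-fold. Most grey bars lie left of it, where 12 of the 33 members also lie, and the remaining 21 members lie to its right.

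Pairs of lines were then set against each other with limma contrasts over the libraries. These 3 pairs were chosen after their values were seen: they are 2 pairs of lines that share a number and a pair of IDH1 WT lines. PC134-0 and PC326-1 were close, with 21 of 13379 genes (0.157%) at least 4-fold apart at an adjusted p under 0.05. Hoxa6, Hoxa7 and Hoxa10 were 3 of those 21, each lower in PC134-0 by limma, with differences of -4.33 ± 0.17 (SE), -3.39 ± 0.09 and -2.42 ± 0.10 on the log2(FPKM + 0.5) scale and adjusted p of 3.7e-12, 3.1e-14 and 4.9e-12. Between PIC144-1 and PIC144-3, 313 genes (2.34%) were called, and 2 of the 33 tested members. Hoxa10 was higher in PIC144-1 by 2.68 ± 0.10 (SE) and Lhx2 lower, with a difference of -3.07 ± 0.07. Between PIC496-3 and PIC496-4, 363 genes (2.71%) were called, and 10 of the 33 tested members. Hoxa6, Hoxa7 and Hoxa10 were higher in PIC496-4, and Lhx2, Meis2, Six3, Nkx6-2, Irx2, Emx2 and Dlx2 higher in PIC496-3. PIC496-4 also had the lowest sums of the oligodendrocyte progenitor, astrocyte, neuron and stem-like markers, whose part in these differences was not tested. Sums are weighted to abundant markers, and the number of markers on did not always follow them. PIC496-4 had 9 of 9 stem-like and 3 of 5 astrocyte markers on, not the fewest of the lines. It had 2 of 5 oligodendrocyte progenitor and 1 of 7 neuron markers on, the fewest. Its stem-like sum (1261 FPKM) was close to that of PC326-1 (1292 FPKM). The contrasts compare these lines by their libraries, not the genotypes.

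The comparison the series was made for is IDH1 mutant against IDH1 WT. IDH1 encodes an isocitrate dehydrogenase whose tumour mutants make 2-hydroxyglutarate. The genotype belongs to the line, so each line was 1 replicate (n = 4 and n = 3), and its value was the mean of log2(FPKM + 0.5) over its libraries. Lines sharing a number may share an animal, so the 4 mutant lines may not be independent, here and in the permutation test below. In limma, 15 of 13379 genes passed an adjusted p under 0.05 (0.112%), and 0 of the 33 tested members did. At an unadjusted p under 0.05 there was 1 of the 33 members, against 12.8% of all genes tested. With lines sharing a number averaged, limma called 6 of 13379 genes and 0 of the 33 members. At an unadjusted p under 0.05, that fit had 5 of the 33 members and 1780 of all genes. With limma voom on the recovered fragments, 0 of all 13379 genes were called, so no member could be. Differences of the members, mutant minus WT, ran from -1.43 to 0.89, with 15 above 0 and 18 below. Their median was -0.10, against 0.01 for all genes. The median SE of a difference was 0.56 for the members and 0.22 for all genes.

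Six5 had the smallest p. Its mutant libraries ran from 3.63 to 6.46 FPKM with a median of 4.75 FPKM, and its WT libraries from 1.75 to 3.86 FPKM with a median of 2.99 FPKM. The line means were 4.99 ± 1.12 FPKM (SD, n = 4) and 2.93 ± 0.768 FPKM (SD, n = 3), and every mutant line lay above every WT line. The difference was 0.68 ± 0.23 (SE) on the log2(FPKM + 0.5) scale, and limma gave an adjusted p of 0.335. With the lines split in all 35 ways, an exact two-sided permutation test gave p = 0.0571, where the smallest it can give is 0.0286. Six5 was the 1 tested member of 33 whose genotypes did not overlap, while 13.3% of all genes tested did not overlap. Six5 encodes a homeodomain factor beside the myotonic dystrophy kinase gene.

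The next members overlapped between genotypes. Hoxa2 ran from 1.55 to 9.44 FPKM (median 5.23) in the mutant libraries and from 5.26 to 15.9 FPKM (median 13.8) in the WT libraries. Its line means were 5.15 ± 3.11 FPKM (SD, n = 4) and 11.7 ± 4.96 FPKM (SD, n = 3), a difference of -1.20 ± 0.53 (SE) with a limma adjusted p of 0.395. PC308-1, a WT line, lay among the mutant lines for Hoxa2. Hoxa3 libraries ran from 3.66 to 8.40 FPKM (median 5.52) and from 6.75 to 11.0 FPKM (median 7.73), with a difference of -0.55 ± 0.26 (limma adjusted p = 0.410). Pax6 libraries ran from 0.158 to 2.04 FPKM (median 1.62) and from 1.27 to 3.23 FPKM (median 2.94), with a difference of -0.73 ± 0.46 (limma adjusted p = 0.514). Dlx2, with libraries from 0.323 to 4.52 FPKM (median 1.72) and from 0.255 to 1.47 FPKM (median 0.575), had the opposite sign (0.89 ± 0.56, limma adjusted p = 0.514). Irx3 (0.33 ± 0.18), Lhx2 (-1.43 ± 1.10), Dlx1 (0.73 ± 0.57), Meis2 (-0.92 ± 0.82) and Irx5 (0.16 ± 0.14) complete the 10 members with the smallest p, with limma adjusted p from 0.471 to 0.637. For Lhx2 and Meis2, PIC496-4 was near 0 and the other mutant lines were not. Lhx2 mutant libraries ran from 0.0551 to 19.4 FPKM (median 5.50) and WT libraries from 6.71 to 14.8 FPKM (median 11.6). Irx3 libraries ran from 3.24 to 8.66 FPKM (median 5.47) and from 3.55 to 5.84 FPKM (median 4.25), and those of Irx5 from 5.11 to 7.86 FPKM (median 5.67) and from 4.27 to 7.27 FPKM (median 5.07). The exact two-sided permutation test gave p from 0.114 to 0.457 for the 9 members after Six5.

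**Figure D5:**
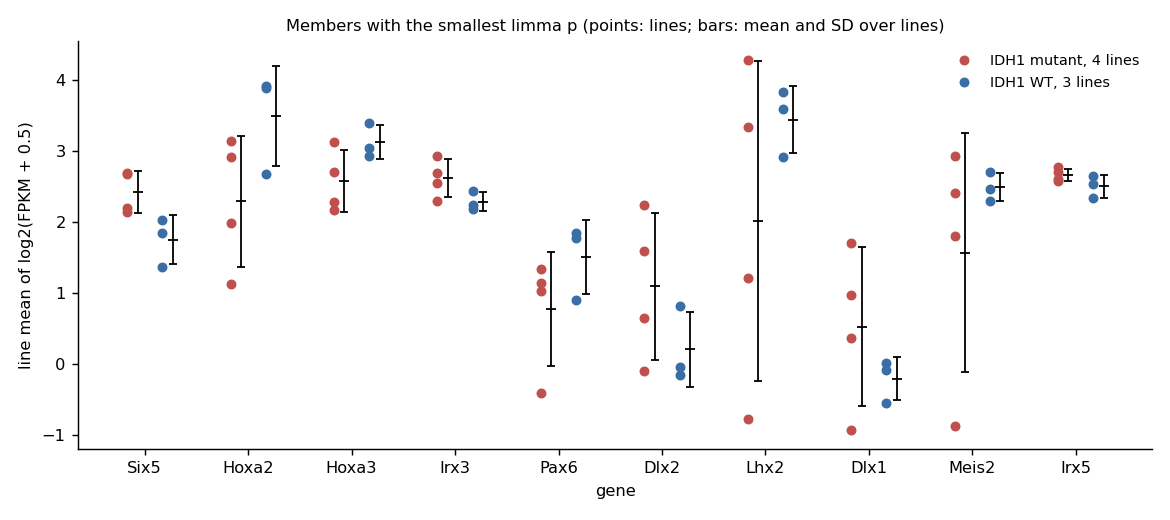
The 10 tested members with the smallest limma p, as line means of log2(FPKM + 0.5), with red points for the 4 IDH1 mutant lines and blue points for the 3 IDH1 WT lines. Bars give the mean and SD over lines. The colours are apart for Six5 and overlap for the other 9 genes.

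Genes around the members were read from 5 lists. Of 68 other homeobox genes, 34 were on in at least 1 line and 10 in all 7, and of 29 tested, 0 passed the genotype test in either direction. The smallest p in each direction were those of Alx4 (-2.42, limma adjusted p = 0.295) and Pou3f3 (0.48, limma adjusted p = 0.373). Like the members, these genes varied between lines: 17 of the 29 ranged by at least 4-fold. Of all 13379 genes tested, 11.1% ranged this far and passed the F test. Barx1 lay between 0.761 and 48.3 FPKM, and Prrx1 at 0.270 FPKM in PIC496-4 and 9.78 to 14.2 FPKM elsewhere. Barhl2 was at 7.06 FPKM in PIC496-4 and at most 0.137 FPKM elsewhere. Polycomb and trithorax genes encode the chromatin complexes that keep Hox genes off or on. All 36 were on in at least 1 line and 34 in all 7, with 0 of 35 tested passing in either direction. Of these 35, 1 ranged by at least 4-fold, Pcgf2 (2.63 to 12.3 FPKM), and Ezh2 stayed between 13.7 and 21.7 FPKM. Phc1 (-0.54, limma adjusted p = 0.370) and Pcgf6 (0.59, limma adjusted p = 0.391) had the smallest p.

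Retinoic acid and hedgehog signals set Hox and ventral genes in the embryo. Of 29 such genes, 17 were on in at least 1 line and 10 in all 7, and 0 of 14 tested passed in either direction, with Cdon (1.07, limma adjusted p = 0.419) and Ptch1 (-0.44, limma adjusted p = 0.423) first by p. Rara, a retinoic acid receptor, was on in all lines (16.7 to 43.5 FPKM), and Crabp1, a retinoic acid carrier, was at 28.4 FPKM in PIC144-1 and at most 0.402 FPKM elsewhere. Of 31 regional transcription factors without a homeobox, 19 were on in at least 1 line and 7 in all, and 0 of 15 tested passed in either direction. Lmo3 (-2.33, limma adjusted p = 0.244) and Sp9 (1.15, limma adjusted p = 0.290) had the smallest p. Of the 15, 8 ranged by at least 4-fold, where 11.1% of all genes tested did so and passed the F test. Of the 17 measured noncoding genes of the Hox and Dlx clusters and their like, 4 were on in at least 1 line, 1 of them (Hotairm1) in all 7, and 0 of 4 tested passed in either direction. Six3os1 (0.44, limma adjusted p = 0.820) and Hotairm1 (-0.14, limma adjusted p = 0.721) had the smallest p.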

How the data were processed

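Messenger RNA was measured in 21 libraries of 7 lines. Libraries were made from polyA RNA after rRNA removal, keep the strand and were read as pairs on a NovaSeq instrument, per the labels' protocols. HISAT2 and the build mm39 are named in the submitters' processing notes. The counter and its use of strand are not stated there. The deposited values are FPKM made by the authors. Their coordinates match GRCm38: 95 of the 98 members have the same position in GENCODE M21.

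Whole fragments were recovered from the FPKM and gene lengths for 100% of values under 1000 fragments (tolerance 0.05 fragments), with 15011668 to 21966351 fragments per library. Floors of 3 fragments cover counting error only.

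Genotypes were compared with limma 3.58.1 in R 4.3.3 (eBayes with trend and robust) on the mean of log2(FPKM + 0.5) over a line's libraries, for genes with a line mean of at least 0.5 FPKM in at least 3 of 7 lines, with Benjamini-Hochberg adjustment over all of them. Fold changes on this scale understate the change of low genes. Lines were compared by an F test over the libraries, which the labels call biological replicates. Nothing says how they were grown apart, so its p-values may measure technical spread. Exact permutations used scipy 1.17.1, and the fits were tested on simulated data.

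Members, gene lists and alternatives were chosen with earlier results of these data known. Every member on in at least 1 line is named. Library values are given for the 10 tested members with the smallest p, the 10 with the widest range over lines and the most abundant of each family, in full for the lines that stand high or low and otherwise as the lowest, median and highest or as mean and SD, and the plots show more of them. Of other lists, the gene with the smallest p in each direction is named. Other genes of those lists, and the markers printed, were chosen after their values were seen. Promoter windows are from RefSeq (GRCm38.p6) and matched 65 of 97 member symbols. Some genes of these families and lists are not reported here and enter no count of members or lists. Alternatives were other pseudocounts, filters, scalings, tests and thresholds, and leaving out lines or replicates.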

Additional observations from a re-analysis of the deposited data

Results flagged for a closer look

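In 6 of the 39 members that were on in at least 1 line, 1 of the 4 IDH1 mutant lines stood far from the other 3, by Dixon's ratio of the gap to the whole range on the log2(FPKM + 0.5) scale (95% critical value). Chance alone marks about 1 in 20 such groups, and the 39 genes were measured in the same 4 lines. The share of all genes marked in this way is not given, so whether 6 of 39 differs from other genes is not known. Hoxd8 (ratio 1.00) and Nkx6-1 (ratio 0.988) were high in PIC144-3, at 1.24 and 2.87 FPKM. Both were on in that line alone and so entered the 39 through it, and with no Hoxd8 fragment in the other mutant lines its ratio could not be other than 1, so the chance rate does not apply to them. Hoxa9 (ratio 0.842) and Pbx2 (ratio 0.967) were high in PIC496-4, at 8.36 and 9.33 FPKM, and for Pbx2 the other mutant lines lay between 7.92 and 7.97 FPKM, so that the gap was small in size. In PIC496-3, Otx1 was low (ratio 0.851) at 0.224 FPKM and Otx2 high (ratio 0.878) at 1.19 FPKM.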

How the results depend on the processing

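The count of members that passed the genotype test was 0 under all 31 alternatives, which included limma voom, the line as a random effect over libraries, and leaving out each line, each replicate or both PIC496 lines. The last of these, a filter on the mean over lines, leaving out lines with the tested genes kept, and the contrasts of 2 lines were added after seeing the data. The lowest adjusted p of any member in them was 0.0583 (limma). Over all genes, limma voom and leaving out PC134-0 with the filter redone called 0, so no member could pass there. Leaving out PC326-1 with the filter redone called 1 gene. The line as a random effect called the most, 552 of 13379 genes, or 440 with a replicate block. For the 10 members with the smallest p, the log2 difference kept its sign in all 308 alternatives that gave a value. Many of these could not change it: other filters, eBayes without trend and the random-effect fits left the difference as it was. Leaving out a line gave the same difference with the tested genes kept or the filter redone. The 10 were also picked by p in these data, so the count of 308 does not measure robustness. Six5 ranged from 0.49 to 0.82, Hoxa2 from -1.61 to -0.81, Lhx2 from -2.18 to -0.50 and Meis2 from -1.82 to -0.11. The number of members at least 4-fold apart among lines was 21, and 14 to 27 over its 21 alternatives, lowest with an 8-fold rule and highest with a 2-fold rule. Members on in all 7 lines numbered 12, with 8 at a threshold of 2 FPKM and 17 after rescaling to TPM or without PIC496-4. Members on in at least 1 line numbered 36 to 43, and members with no fragment 26, or 33 with at most 3 fragments over all libraries.

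Libraries with the same replicate number did not deviate together (63 pairs, correlation from -0.124 to 0.292 with a median of 0.0149, against a median of -0.0107 and a highest value of 0.207 for 126 pairs with other numbers), so the numbers were not taken to pair libraries. With a replicate block the F test count stayed at 21 and the genotype count at 0. Depth limits the lowest levels: 1 fragment in a library is worth hundredths of an FPKM, or thousandths for the longest members. Values under 0.1 FPKM rest on at most 45 fragments over a line's libraries in these members. The 7 lines limit the genotype comparison, and the SE of line-variable members such as Hoxa6 (1.36) left room for differences of 4-fold in either direction.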
